A study of Mus musculus with 16 samples.

Results

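The 10 genes described here set the pace of G1, the phase in which a cell either commits to division or leaves the cycle, and were followed in a coculture of sympathetic ganglia with pancreatic stellate cells (PSCs). They are the D-type cyclins Ccnd1, Ccnd2 and Ccnd3, the kinases Cdk4 and Cdk6, the CIP/KIP inhibitors Cdkn1a, Cdkn1b and Cdkn1c, and the INK4 inhibitors Cdkn2a and Cdkn2c. They were taken by gene name from the protein-coding rows of the expression tables, 1 row each, as 10 of 21684 protein-coding genes and 56941 genes in all. The question was whether the cocultures changed these genes, on the side of the stellate cells or on the side of the ganglia.

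A D-type cyclin binds CDK4 or CDK6, and the pair phosphorylates the retinoblastoma protein, which then releases the E2F factors that switch on the genes of DNA replication. INK4 proteins bind CDK4 and CDK6 themselves and keep the D-type cyclins off, whereas CIP/KIP proteins bind cyclin-kinase complexes and mainly restrain those with CDK2. In sympathetic ganglia of newborn mice the neurons have largely left the cycle, while satellite glia, Schwann cells, fibroblasts and vascular cells still divide. Activated stellate cells are dividing, matrix-producing fibroblasts of the pancreas.

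RNA was sequenced in bulk from 16 libraries. The PSCs were mPSC1, a single immortalized mouse line, grown alone (PSC, n = 3) or with ganglia (PSC+SCG, n = 3). The ganglia were explants of the superior cervical ganglion (SCG) of wild-type C57BL/6J pups aged 1 to 4 days, grown alone (SCG, n = 3), with NIH 3T3 mouse embryonic fibroblasts (SCG+MEF, n = 3) or with mPSC1 cells (SCG+PSC, n = 4). Each well with ganglia held 8 to 13 explants, and in a coculture 10000 cells sat above them on an insert for about 70 hours, so that medium but not contact was shared. The study's methods name nerve growth factor in the medium used to wash the ganglia before plating. A single explant library thus pools several explants. The study's methods name dated experimental batches, but the sources used here tie no library to a batch, litter or culture, so p-values measure the spread between these libraries, which may be partly technical. The values are reads per gene divided by a size factor of the library (normalized counts), computed by the authors apart for PSC and for explant libraries, and were compared only within each side. Whole reads were recovered for 14 of the 16 libraries, in which 31900689 to 41632381 reads lay on genes.

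Marker genes of the labelled material were checked. PSC libraries carried fibroblast markers, with summed normalized counts of 7 genes between 395936 and 682210, whereas the leukocyte gene Ptprc and the endothelial genes Cldn5, Emcn and Tie1 were listed at 0 in all 6. The other lists were not wholly absent there, with summed counts of 1211 to 2146 for the 8 neuronal markers, 205 to 331 for the 8 macrophage markers and 16.8 to 65.8 for the 6 endothelial markers. Of the neuronal markers 3 passed the filter on low values in PSCs, all 3 with a log2 fold change above 0 in PSC+SCG against PSC (median 0.51) and 0 called in either fit. Explant libraries held markers of sympathetic neurons (summed counts of 8 genes from 89314 to 184580), of satellite glia and Schwann cells, of macrophages, of endothelial cells and of fibroblasts in every group. The explants are therefore mixed tissue. In such bulk samples, fewer cells of a type and less RNA per cell cannot be told apart.

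The order of the members was read per kilobase (kb) of each gene's canonical transcript, from 852 bases in Cdkn2a to 11657 bases in Cdk6. The order depends on this choice of length. The exons of all transcripts of a gene together covered 5213 bases in Cdkn1a, beside 1923 in its canonical transcript. In Cdkn2c they covered 6358 beside 2696, in Ccnd3 3425 beside 2018 and in Ccnd1 3862 beside 3796. In explants Ccnd1 and Cdk4 led, with medians over the 10 libraries of 3383 and 3162 normalized counts per kb, and overlapped each other, Ccnd1 being the higher in 6 of 10 libraries. Cdkn1a, the gene of p21 and a classical target of p53, came next with a median of 2293 per kb. Cdk4 exceeded it in 10 of 10 libraries although the ranges overlapped, and its range did not overlap that of Ccnd3 at a median of 876 per kb. Ccnd3, Ccnd2 and Cdkn1b formed a middle tier whose neighbours overlapped, Ccnd2 exceeding Cdkn1b in 5 of 10 libraries. Below a gap came Cdkn2c with a median of 183 per kb, then Cdkn1c, Cdk6 and Cdkn2a, at 106, 69.7 and 63.0 per kb. Neighbours in this last tier overlapped as well.

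In PSCs the order per kb was led by Cdkn2a, with a median of 12905 over 6 libraries, above Cdk4 in 5 of them. Cdk4 followed at 10472, Cdkn1a at 7011 and Ccnd1 at 4507 per kb, and the range of Cdk4 did not overlap that of Cdkn1a, while Cdkn1a and Ccnd1 overlapped. Ccnd3, Ccnd2, Cdkn2c and Cdkn1b followed at 2453, 1831, 758 and 463 per kb. Cdkn1c and Cdk6 were the lowest, at 166 and 128 per kb, and overlapped. Thus Cdkn2a had the highest median of the members within the PSC libraries and the lowest within the explant libraries, overlapping its neighbour in both orders. These ranks were taken inside each side, since the sides were normalized apart.

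**Figure D1:**
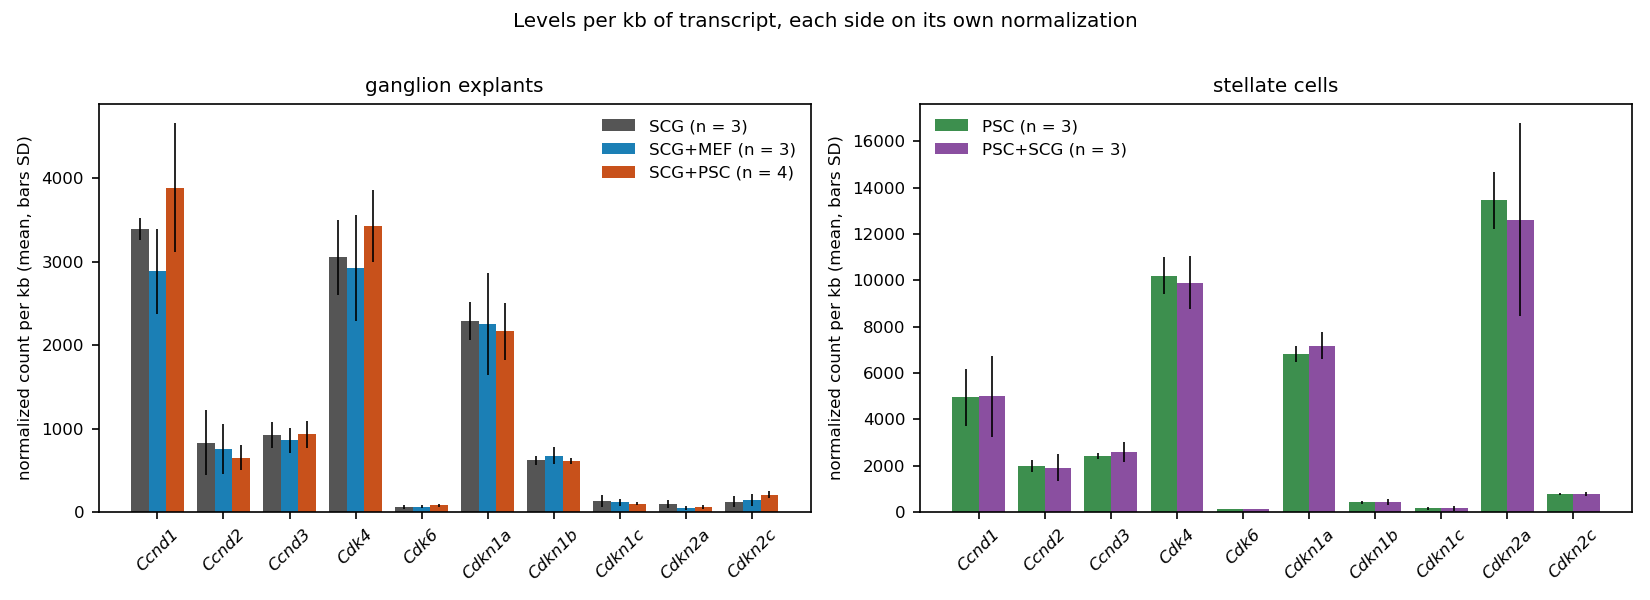
Mean normalized count per kb of canonical transcript for the 10 members, explant groups on the left and PSC groups on the right, each side on its own axis and its own normalization, with error bars for the SD over 3 or 4 libraries. Ccnd1, Cdk4 and Cdkn1a stand highest in explants, and Cdkn2a, Cdk4 and Cdkn1a stand highest in PSCs.

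Among the D-type cyclins, Ccnd1 made up the largest share per kb in each of the 16 libraries. In SCG it was 66.4% of the 3 cyclins on average (60.7% to 74.3%, n = 3), in SCG+MEF 64.3% (57.1% to 71.4%, n = 3) and in SCG+PSC 70.9% (68.0% to 74.4%, n = 4), so the groups overlapped. In PSC the Ccnd1 share was 52.5% (47.9% to 57.8%, n = 3), and in PSC+SCG 51.9% (45.8% to 55.1%, n = 3). Cdk4 exceeded Cdk6 per kb by 35.6 to 71.7 times in the explant libraries and by 67.1 to 92.4 times in the PSC libraries.

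No member passed the test in PSCs cocultured with ganglia. The test was limma on log2(normalized count + 1) over the 21273 genes with a summed count of at least 10, and a gene was called where p, adjusted by Benjamini-Hochberg over those genes, did not exceed 0.05 and the log2 fold change reached 0.5 in either direction. Log2 fold changes of the members, PSC+SCG against PSC, lay between -0.18 (Cdkn1c) and 0.09 (Ccnd3), 0 of 10 were called and 0 had an unadjusted p under 0.05. Over all genes 0% were called and 1.92% had an unadjusted p under 0.05. With libraries of the same replicate number treated as a block, 0 of 10 members were called as well, against 0.461% of all genes. The groups overlapped in 10 of 10 members, while 5.6% of all genes had groups that did not overlap.

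Ccnd1 and Ccnd2 of the PSC side followed the replicate number. Ccnd1 was 16631, 15635 and 24151 normalized counts in PSC replicates 1 to 3, and 17590, 13069 and 26172 in PSC+SCG replicates 1 to 3. Ccnd2 was 11048, 12138 and 14405 in PSC, and 10299, 9752 and 16260 in PSC+SCG. In both genes replicate 3 was the highest library of its group. Ccnd1 differed between the groups by a log2 fold change of -0.02 (SE 0.27, 95% interval -0.63 to 0.59, limma), an interval that reaches past the calling threshold in both directions. Ccnd3, the third D-type cyclin, ranged from 4469 to 6153 over the 6 libraries.

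The kinases varied less. Cdk4 was 19353, 22432 and 21866 in PSC and 17878, 21720 and 22196 in PSC+SCG, a log2 fold change of -0.05 (SE 0.14, 95% interval -0.37 to 0.28). Cdk6 lay between 1317 and 1627 in the 6 libraries. Their intervals thus ended inside the threshold of 0.5 in size, unlike that of Ccnd1.

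Among the CIP/KIP inhibitors of the PSCs, Cdkn1c and Cdkn1b also followed the replicate number, in the direction opposite to Ccnd1. Cdkn1c, the gene of p57, was 365, 342 and 175 in PSC and 300, 496 and 101 in PSC+SCG, so that replicate 3 was the lowest library of both groups. Its log2 fold change of -0.18 had a 95% interval from -1.41 to 1.05, the widest of the members. Cdkn1b, the gene of p27, which holds resting cells in G1, was 2155, 2064 and 1577 in PSC and 2398, 2234 and 1307 in PSC+SCG. Replicate 3 was again lowest in both groups. Cdkn1a kept a narrower range, 12352 to 13517 in PSC and 12652 to 14911 in PSC+SCG. The muscle actin Acta2, a marker of stellate activation, was highest in replicate 3 of both groups too, at 36041 in PSC and 61518 in PSC+SCG. The summed count of the 6 stellate activation markers was highest in replicate 3 of PSC+SCG (443061) but not of PSC (301737, range 285606 to 312178), and their part in these differences was not tested.

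Both INK4 members were abundant in PSCs and neither differed between the groups beyond the spread. Cdkn2a was 11657, 12369 and 10334 in PSC and 8515, 14824 and 8908 in PSC+SCG, so the coculture group enclosed the range of the cells alone. Its log2 fold change was -0.14 (SE 0.21). Cdkn2c, the gene of p18, was 2084, 2001 and 2246 in PSC and 1991, 2322 and 1905 in PSC+SCG, a log2 fold change of -0.03 (SE 0.13, 95% interval -0.32 to 0.26).

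**Figure D2:**
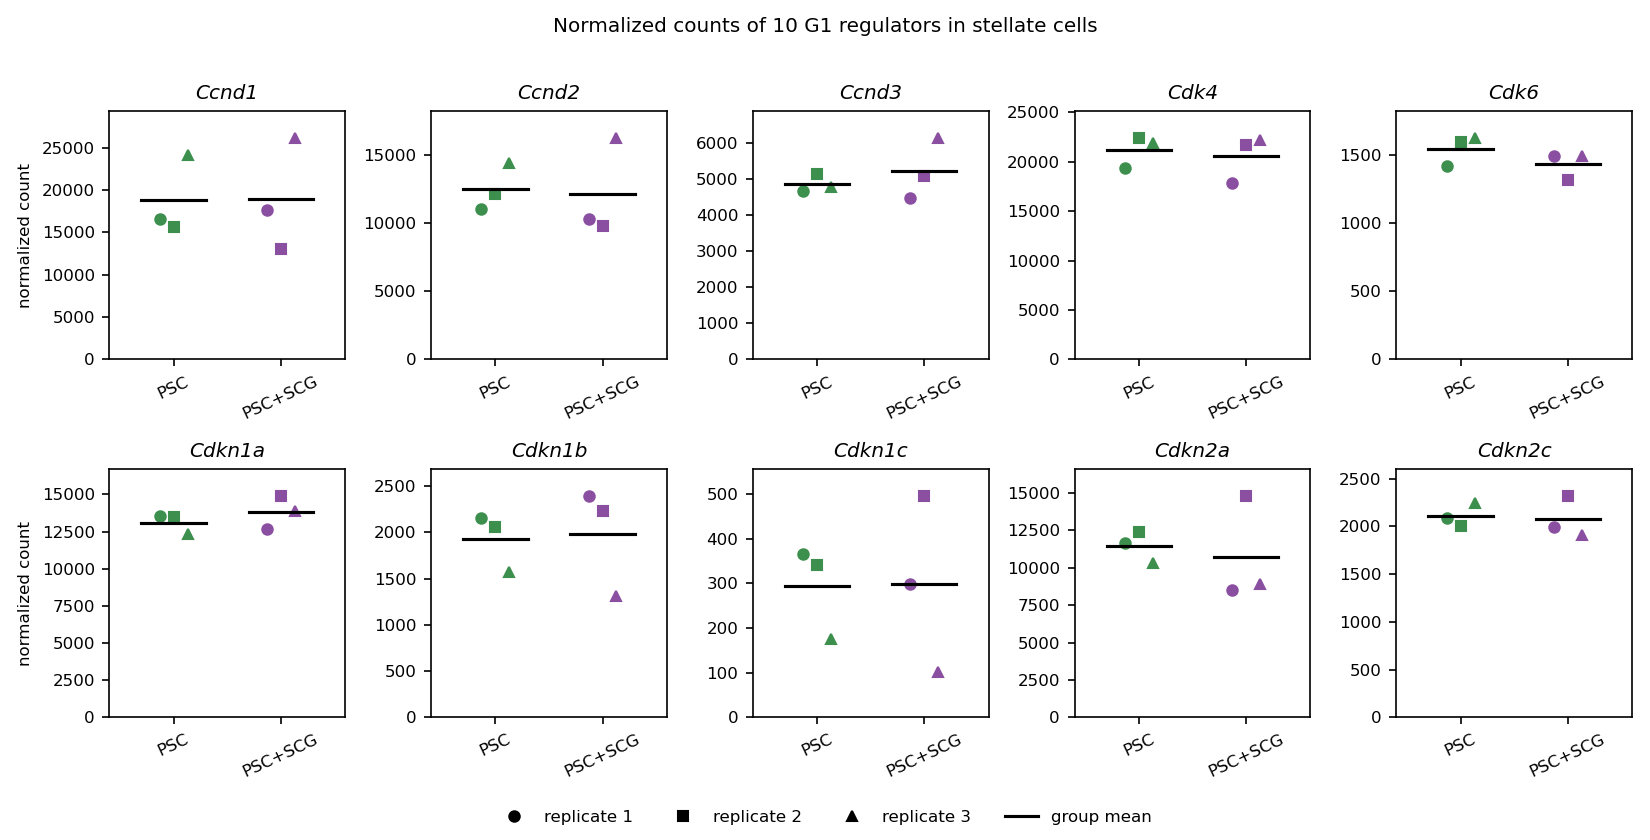
Normalized count of each member in the 3 PSC and 3 PSC+SCG libraries, 1 panel per gene with its own axis from 0, symbols for the replicate number and lines for group means. Replicate 3 (triangles) is the highest library of both groups for Ccnd1 and Ccnd2 and the lowest of both for Cdkn1b and Cdkn1c, and the groups overlap in every panel.

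On the side of the ganglia, Cdkn2c was the member called once same-numbered libraries were compared, and it was higher in SCG+PSC. Its values were 204, 537 and 274 normalized counts in SCG replicates 1 to 3, 255, 617 and 328 in SCG+MEF, and 504, 727, 497 and 490 in SCG+PSC replicates 1 to 4. Replicate 2 was the highest library of each group, and SCG replicate 2 lay above 3 of the 4 SCG+PSC libraries, so the groups overlapped. Among same-numbered libraries Cdkn2c was higher in SCG+PSC than in SCG in 3 of 3, by 1.30, 0.43 and 0.86 on the log2 scale. The summed count of the 8 neuronal markers was lowest in replicate 2 of each group, at 89314 in SCG, 132508 in SCG+MEF and 103582 in SCG+PSC. The summed count of the fibroblast markers was highest in the same libraries, at 390833, 405356 and 390570 in turn. The part of either in the Cdkn2c values was not tested.

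In limma without a block, the log2 fold change of Cdkn2c in SCG+PSC against SCG was 0.81 (SE 0.34, n = 4 and 3), with an unadjusted limma p of 0.0369 and an adjusted p of 0.953, which did not pass. With the replicate number as a block it was 0.87 (SE 0.15, 95% interval 0.535 to 1.195) with a limma adjusted p of 0.0149, and the gene was called. SCG+PSC replicate 4 has no library of the same number and so carries no weight in that fit. Over the alternatives other than leaving out a library, the adjusted p ran from 4.97e-05 to 1. Under the block, leaving out SCG replicate 1 or 3, SCG+MEF replicate 3 or SCG+PSC replicate 1 ended the call, with limma adjusted p of 0.101, 0.0965, 0.0547 and 0.0879 and log2 fold changes of 0.74, 0.87, 0.87 and 0.66. The other 6 libraries could be left out without losing it. Among these, SCG+PSC replicate 4 carries no weight, and SCG+MEF replicates 1 and 2 belong to neither of the groups compared.

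Read over all members, 0 of 10 were called in SCG+PSC against SCG without a block, against 0.0336% of the 23779 genes tested, and 1 of 10 with the block, against 1.31%. At an unadjusted limma p under 0.05 there was 1 member without a block (5.05% of all genes) and 5 with it (10.6% of all genes), namely Ccnd1, Cdk4, Cdk6, Cdkn2a and Cdkn2c. In edgeR on recovered reads without a block 0 members were called, as were 3 of 23680 genes, and 0 members had an unadjusted p under 0.05, beside 3.53% of all genes. The median log2 fold change of the 10 members was 0.002 without a block, where that of all genes was 0.0001. The groups overlapped in 10 of 10 members, while 5.16% of all genes had groups apart.

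Against the control fibroblasts the difference of Cdkn2c was smaller. SCG+PSC exceeded SCG+MEF by a log2 fold change of 0.55 (SE 0.34, limma adjusted p near 1) without a block, and by 0.60 (SE 0.15, limma adjusted p 0.0979) with it, neither of which passed. Over the alternatives the adjusted p ran from 0.0143, in DESeq2 with the block, to 1. SCG+MEF against SCG gave 0.26 (SE 0.37, 95% interval -0.54 to 1.07). Both cocultures were set against the same 3 SCG libraries.

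Cdkn2c lies on the minus strand of chromosome 4, at chr4:109517957-109524386 of GRCm39. RefSeq promoter sequences were matched for 7 of the 10 members, as 11 windows on build GRCm38.p6. Ccnd1, Ccnd2 and Cdkn1c were not matched in the table used here. The 250 bases before each start of Cdkn2c are shown because this was the member called under the block, with the GC box GGGCGG in capitals, a short element bound by Sp1-type factors. They read from 5′ to 3′ on the minus strand and lie at chr4:109666757-109667006 (first) and chr4:109665373-109665622 (second).
Cdkn2c first start: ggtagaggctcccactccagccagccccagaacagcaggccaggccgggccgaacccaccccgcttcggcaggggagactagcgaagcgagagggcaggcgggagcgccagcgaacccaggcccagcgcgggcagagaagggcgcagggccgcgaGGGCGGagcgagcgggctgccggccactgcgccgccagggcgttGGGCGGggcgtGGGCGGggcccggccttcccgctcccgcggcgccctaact
Cdkn2c second start: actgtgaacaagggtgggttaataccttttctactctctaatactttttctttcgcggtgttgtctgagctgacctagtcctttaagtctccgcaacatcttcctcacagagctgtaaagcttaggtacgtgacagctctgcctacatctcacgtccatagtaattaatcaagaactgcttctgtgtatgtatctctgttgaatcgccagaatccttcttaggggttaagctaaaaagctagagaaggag
The first window holds 3 GC boxes on the strand shown or its complement and the second 0, and GGGCGG occurs on either strand in 32.7% of the 32851 windows of this length. The E2F motif TTTNNCGC, searched on both strands, was found in neither window of Cdkn2c and in 4.28% of all windows. A match or its absence describes these letters only.

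Cdkn2a, by contrast, was low in explants and lowest in SCG+MEF. It was 60.7, 132 and 58.4 normalized counts in SCG, 27.4, 61.3 and 28.4 in SCG+MEF, and 48.9, 74.0, 41.7 and 30.3 in SCG+PSC. Replicate 2 was the highest library of every group, which is why SCG and SCG+MEF overlapped, SCG+MEF replicate 2 lying above SCG replicates 1 and 3. Among same-numbered libraries SCG+MEF was below SCG in 3 of 3, with log2 differences of -1.12, -1.10 and -1.02.

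The log2 fold change of Cdkn2a in SCG+MEF against SCG was -1.08 (SE 0.44, 95% interval -2.03 to -0.12, unadjusted limma p 0.0303), and its adjusted p, near 1, did not pass. Over the alternatives the adjusted p ran from 0.110 to 1. In SCG+PSC against SCG it was -0.74 (SE 0.41), and in SCG+PSC against SCG+MEF 0.34 (SE 0.41), and neither passed. Counts this low carry more counting error than those of the other members.

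The row of Cdkn2a pools transcripts from 2 first exons, 1 leading to p16, an INK4 protein, and 1 leading to p19ARF, a separate protein that acts on Mdm2 and so on p53. Which of them was present cannot be read from a gene-level count. The gene lies on the minus strand at chr4:89192708-89212890 of GRCm39. The 250 bases before each of its RefSeq starts are shown because they belong to these separate transcripts, with the E2F motif TTTNNCGC in capitals, at chr4:89294620-89294869 (upstream start) and chr4:89282193-89282442 (downstream start) of GRCm38.p6, minus strand, 5′ to 3′.
Cdkn2a upstream start: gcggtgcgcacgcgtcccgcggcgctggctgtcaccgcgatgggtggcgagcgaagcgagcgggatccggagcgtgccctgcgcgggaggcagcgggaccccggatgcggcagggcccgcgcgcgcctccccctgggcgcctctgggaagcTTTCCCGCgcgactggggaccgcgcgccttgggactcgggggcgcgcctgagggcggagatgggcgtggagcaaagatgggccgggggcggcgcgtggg
Cdkn2a downstream start: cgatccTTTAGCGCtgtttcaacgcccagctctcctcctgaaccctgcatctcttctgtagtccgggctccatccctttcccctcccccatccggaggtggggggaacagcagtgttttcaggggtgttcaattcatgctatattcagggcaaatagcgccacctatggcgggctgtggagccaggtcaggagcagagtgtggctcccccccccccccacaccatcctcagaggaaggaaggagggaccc
Each holds 1 match, and among the 7 matched members only the windows of Cdkn2a and Cdk6 did, as 3 of 11 windows.

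The further INK4 genes were described as a fixed list of 2, Cdkn2b and Cdkn2d. Cdkn2b, the gene of p15, a neighbour of Cdkn2a on chromosome 4 and known as a target of TGF-beta signalling, was 1060, 1425 and 954 in SCG, 667, 685 and 482 in SCG+MEF and 865, 903, 543 and 626 in SCG+PSC. Both coculture groups lay wholly below SCG, and they were compared with the same 3 SCG libraries. Of all genes, 6.62% had groups apart in either direction in SCG+MEF against SCG, and 5.16% in SCG+PSC against SCG. Its log2 fold change in SCG+MEF against SCG was -0.90 (SE 0.23, limma adjusted p 0.897) without a block and -0.90 (SE 0.11, limma adjusted p 0.0070) with it. In SCG+PSC against SCG it was -0.65 (SE 0.21, limma adjusted p 0.838) without a block and -0.59 (SE 0.11, limma adjusted p 0.0203) with it. Thus Cdkn2b was called in both under the block only. SCG+PSC and SCG+MEF differed by 0.31 (SE 0.11) under the block, which did not pass (limma adjusted p 0.264). Cdkn2d was called in no comparison of the explants, with log2 fold changes of 0.13, 0.10 and 0.03 without a block.

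**Figure D3:**
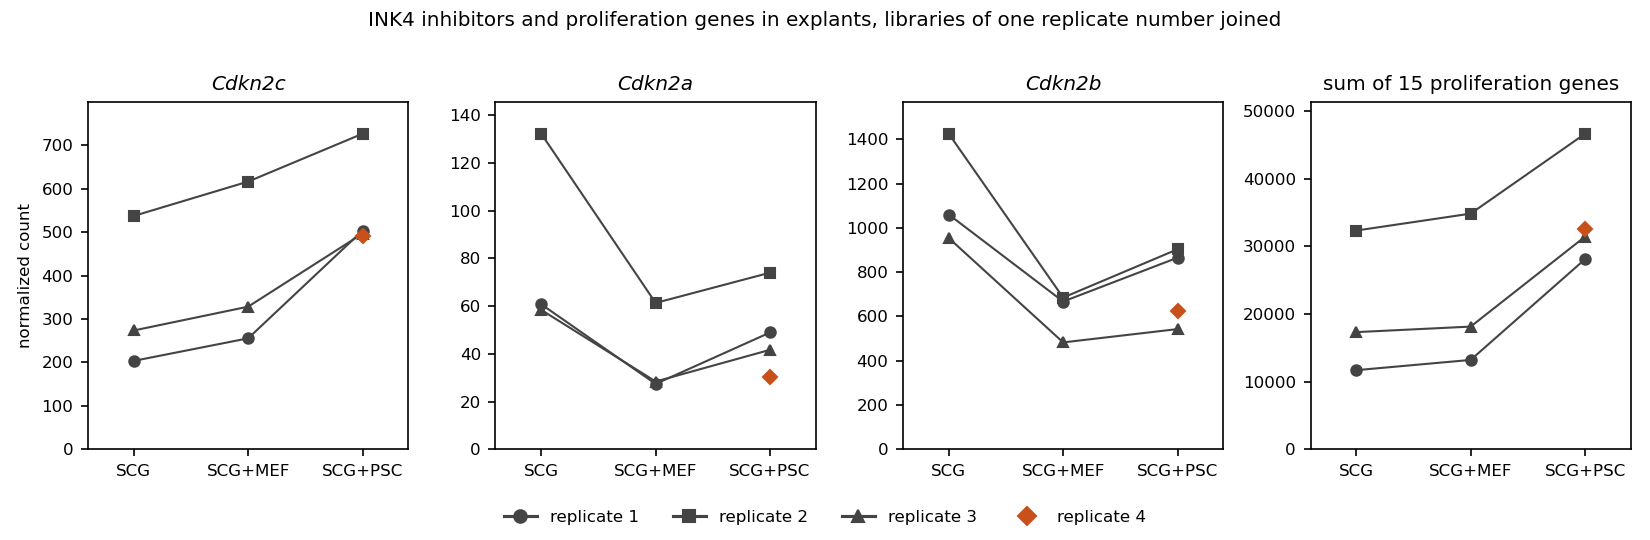
Normalized counts of Cdkn2c, Cdkn2a and Cdkn2b and the summed normalized count of 15 proliferation genes in the explant libraries, with lines joining libraries of the same replicate number and the unpaired SCG+PSC replicate 4 as a lone diamond. Cdkn2c and the proliferation sum are higher in SCG+PSC than in SCG on each line, and Cdkn2a and Cdkn2b are lower in SCG+MEF than in SCG on each line.

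Among the D-type cyclins of the explants none was called. Ccnd1, the most abundant per kb, was 12526, 13435 and 12640 in SCG, 10622, 13047 and 9213 in SCG+MEF, and 15539, 18518, 11882 and 13065 in SCG+PSC. SCG+PSC was above the same-numbered SCG+MEF library in 3 of 3, by 0.55, 0.51 and 0.37 on the log2 scale, though the groups overlapped. The log2 fold change of SCG+PSC against SCG+MEF was 0.42 (SE 0.16, 95% interval 0.08 to 0.77, unadjusted limma p 0.0206), and its adjusted p, near 1, did not pass. Against SCG alone Ccnd1 showed 0.18 (SE 0.16) in SCG+PSC and -0.25 (SE 0.17) in SCG+MEF, neither of which passed.

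Ccnd2, which binds the same kinases, varied with the replicate number. It was 2501, 6022 and 7245 in SCG, 2593, 5535 and 6210 in SCG+MEF, and 3206, 5467, 3961 and 3901 in SCG+PSC. Replicate 1 was the lowest library of each group, 2.90 times below the highest in SCG. The log2 fold change of SCG+PSC against SCG was -0.24 (SE 0.37, 95% interval -1.05 to 0.58), so these libraries leave room for changes past the threshold in either direction. Ccnd3 ranged from 1439 to 2345 over the 10 libraries, with log2 fold changes of 0.01, -0.11 and 0.12 for SCG+PSC versus SCG, SCG+MEF versus SCG and SCG+PSC versus SCG+MEF in turn.

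Both kinases were somewhat higher in SCG+PSC than in the same-numbered library of either other group, in 3 of 3 each, without passing the test. Cdk6 was 477, 1024 and 745 in SCG, 541, 1006 and 682 in SCG+MEF, and 699, 1154, 879 and 1033 in SCG+PSC. Its log2 fold change against SCG was 0.37 (SE 0.27, limma adjusted p near 1) and against SCG+MEF 0.36 (SE 0.27, limma adjusted p near 1). Cdk4 ranged from 5577 to 7387 in SCG, 5134 to 7591 in SCG+MEF and 6557 to 8468 in SCG+PSC. Its log2 fold changes in SCG+PSC were 0.17 (SE 0.15) against SCG and 0.24 (SE 0.15) against SCG+MEF.

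The CIP/KIP inhibitors of the explants were not called in any comparison. Cdkn1b was the steadiest member, from 2618 to 3610 over the 10 libraries, and its log2 fold change in SCG+PSC against SCG was -0.005 (SE 0.11, 95% interval -0.25 to 0.24), inside the threshold on both sides. Cdkn1a was 3970, 4392 and 4856 in SCG, 3057, 5383 and 4554 in SCG+MEF, and 3440, 4427, 4953 and 3843 in SCG+PSC, and replicate 1 was the lowest library of each group. Its log2 fold changes were -0.09, -0.06 and -0.03 for the comparisons in the same order. Cdkn1c was 217, 133 and 400 in SCG, 208, 152 and 310 in SCG+MEF, and 178, 143, 228 and 203 in SCG+PSC. Replicate 2 was its lowest library in every group, the reverse of Cdkn2c and Cdkn2a. The neuronal marker sum was lowest and the fibroblast marker sum highest in those libraries too, and the part of either in the Cdkn1c values was not tested.

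Cdkn1a stood high per kb of canonical transcript on both sides, a place that depends on the length chosen. Its upstream RefSeq promoter is shown for its p53 half-sites, in capitals, on the plus strand at chr17:29090729-29090978 of GRCm38.p6, 5′ to 3′.
Cdkn1a upstream start: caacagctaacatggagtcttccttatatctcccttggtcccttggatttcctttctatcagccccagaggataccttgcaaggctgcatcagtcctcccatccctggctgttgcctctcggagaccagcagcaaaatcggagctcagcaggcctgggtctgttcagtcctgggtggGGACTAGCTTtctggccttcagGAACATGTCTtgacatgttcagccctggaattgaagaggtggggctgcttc
It holds 2 matches to the p53 half-site consensus on either strand, which occurs in 7.13% of all windows. The other matched window of Cdkn1a, at chr17:29093519-29093768, is not shown and holds 0 matches. Of the fixed p53 pathway list of 16 genes, which includes Trp53, Mdm2 and Ccng1, 0 were called in SCG+PSC against SCG without a block or with it, and their median log2 fold change was -0.14 without a block. Of the 16, 2 had a log2 fold change above 0. Ccng1, a p53 target, was at -0.21 (SE 0.23), and Mdm2, the ligase that degrades p53, at -0.11 (SE 0.16). Gadd45a, a stress-induced gene, was 6134 to 8834 in SCG and 4573 to 6046 in SCG+PSC. Its groups thus did not overlap, as in 5.16% of all genes. In SCG+PSC against SCG+MEF 0 were called without a block and 1 was lower with it, Gadd45a, by a log2 fold change of -0.54 (SE 0.08, limma adjusted p 0.0213).

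Over the members, SCG+MEF against SCG gave 0 of 10 called without a block, against 0.0126% of all genes, and 0 of 10 with it, against 0.16%, where 2 members, Ccnd1 and Cdkn2a, had an unadjusted limma p under 0.05, as had 7.5% of all genes. An unadjusted limma p under 0.05 was seen in 1 member, Cdkn2a, without a block (3.37% of all genes), and in the same member alone in edgeR (2.82% of all genes). The groups overlapped in 10 of 10 members, and 6.62% of all genes had groups apart. SCG+PSC against SCG+MEF gave 0 of 10 called without a block, against 0% of all genes, and 0 of 10 with it, against 0.786%. Under the block the same 5 members as against SCG had an unadjusted limma p under 0.05, beside 11.7% of all genes. In that comparison 1 member, Ccnd1, had an unadjusted p under 0.05 in limma without a block (4.08% of all genes) and in edgeR (2.98% of all genes). The groups again overlapped in 10 of 10 members, with 4.77% of all genes apart.

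**Figure D4:**
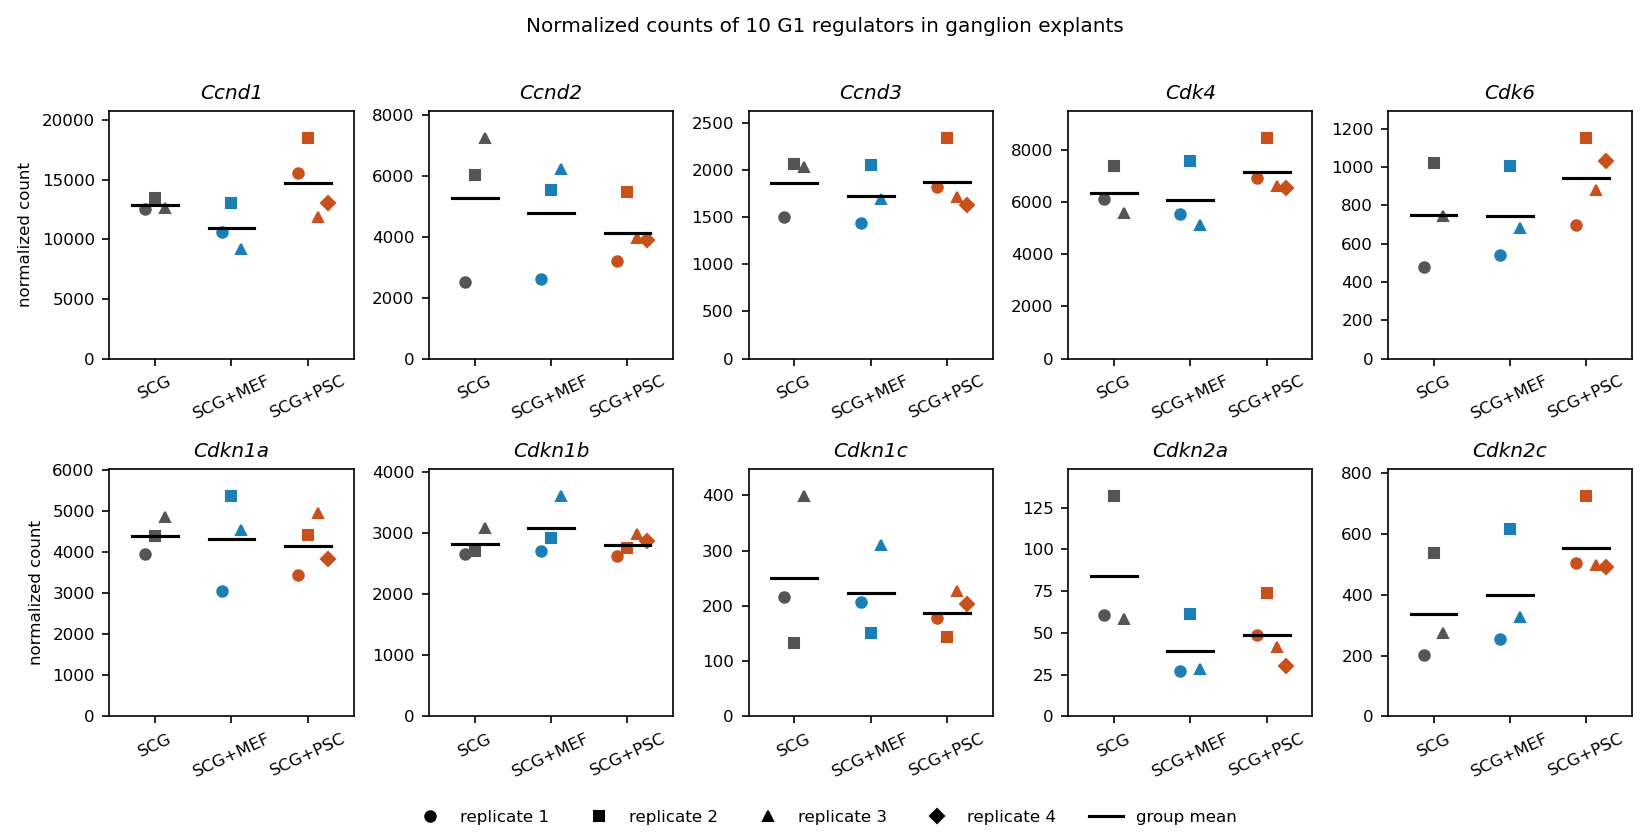
Normalized count of each member in the 10 explant libraries, 1 panel per gene with its own axis from 0, symbols for the replicate number and lines for group means. SCG+PSC has the highest mean of Cdkn2c and SCG the highest mean of Cdkn2a, and in each panel the groups overlap.

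**Figure D5:**
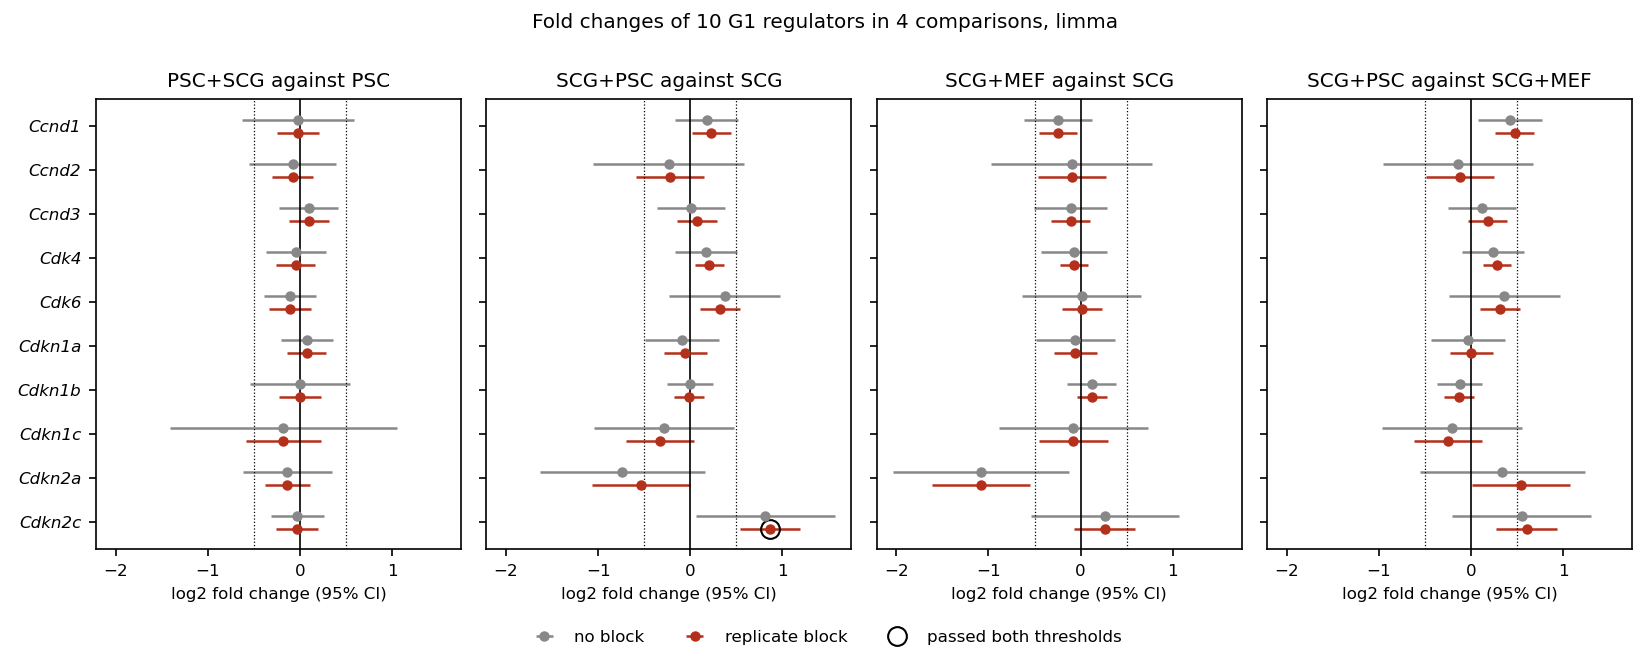
Log2 fold change with its 95% interval for the 10 members in the 4 comparisons, from limma without a block (grey) and with the replicate block (red), dotted lines at the threshold of 0.5 in size and a black ring around a member that passed both thresholds. The ring marks Cdkn2c in SCG+PSC against SCG under the block, at 0.87, and the PSC+SCG against PSC estimates all lie between -0.18 and 0.09.

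Steps downstream of the members were read from fixed lists. Of the 15 genes of the proliferation list, which holds replication and mitosis genes, 0 were called in SCG+PSC against SCG without a block, with a median log2 fold change of 1.03, and 13 were higher with it, with a median of 1.07, beside a median of 0.002 over all genes. Mki67, which marks cycling cells, was 999, 4867 and 1852 in SCG, 1488, 4969 and 2119 in SCG+MEF, and 4024, 7027, 5218 and 5141 in SCG+PSC. As with Cdkn2c, replicate 2 was the highest library of each group and SCG overlapped with SCG+PSC. Its log2 fold change under the block was 1.34 (SE 0.20, limma adjusted p 0.0084). In SCG+PSC against SCG+MEF 0 were called without a block and 10 were higher with it. In SCG+MEF against SCG 0 of 15 were called in either fit, with a median of 0.15.

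Of the 10 E2F and DP factors, 0 were called in SCG+PSC against SCG without a block and 3 were higher with it: E2f1, an activator, by 0.62 (SE 0.12), and the repressors E2f7 and E2f8, by 0.92 (SE 0.16) and 1.44 (SE 0.23). Of the 3 pocket proteins, the retinoblastoma family, Rbl1 was higher under the block by 0.79 (SE 0.12, limma adjusted p 0.0096), while Rb1 and Rbl2 were not called. Of the 6 genes of the cyclin E and A with CDK2 list, Ccne2 and Ccna2, which act after the D-type cyclins, were higher under the block by 1.21 (SE 0.17) and 1.19 (SE 0.18). In SCG+MEF against SCG none of these 3 lists had a call in either fit. Set directly against SCG+MEF under the block, 2 of 10 E2F and DP factors were higher in SCG+PSC, E2f1 by 0.65 (SE 0.12) and E2f8 by 1.13 (SE 0.23), with 1 of 6 genes of the cyclin E and A list, Ccna2, by 0.94 (SE 0.18), and 0 of 3 pocket proteins, and without a block 0 genes of these lists were called.

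Further branches gave few calls. Of the 11 genes of the Myc and ERK output list, Fosl1, an AP-1 subunit, was higher under the block in SCG+PSC, by 0.65 (SE 0.13) against SCG and by 0.78 (SE 0.13) against SCG+MEF, and 0 genes were called without a block. The 3 genes of the CDK-activating kinase and the 5 genes of p27 turnover and FOXO had 0 calls in the 3 comparisons of the explants in either fit. In PSC+SCG against PSC 0 tested genes of these pathway lists were called in either fit, the proliferation list having a median log2 fold change of -0.06.

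Other cell types of the explants were followed beside these lists. In SCG+PSC against SCG the 6 endothelial markers had a median log2 fold change of 1.04 without a block, 5 of 6 being above 0 and 0 called in either fit, while their summed counts, 3455 to 4342 in SCG and 4062 to 4290 in SCG+PSC, overlapped. Pecam1, an endothelial adhesion molecule, was 338, 129 and 86.1 in SCG and 328, 299, 628 and 434 in SCG+PSC. Of 7 fibroblast markers 1, the collagen-binding Lum, was higher under the block, by 0.65 (SE 0.13), and the summed counts were 208256 to 390833 in SCG and 281765 to 390570 in SCG+PSC. In SCG+MEF against SCG, Lum and Dcn were higher under the block, by 1.29 (SE 0.13) and 0.74 (SE 0.12), and the glial Fabp7 lower, by -0.50 (SE 0.08). Under the block Fabp7 in SCG+PSC against SCG+MEF was higher by 0.56 (SE 0.08) and Lum lower by -0.64 (SE 0.13), as 1 of 7 glial and 1 of 7 fibroblast markers, and 0 neuronal, macrophage or endothelial markers were called. The part of these cell types in the values of Cdkn2c, Cdkn2a and Cdkn2b was not tested.

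Genes of like pattern were looked up by the highest Pearson r of log2(normalized count + 1) among protein-coding genes with a mean count of at least 50, as a description over libraries that share groups and replicate numbers. Over the 10 explant libraries Cdkn2c, called under the block, was closest to Knstrn (r = 0.996), Ckap2l (r = 0.995) and Zwilch (r = 0.993) of 12848 genes. All of these are known as genes of the mitotic spindle or kinetochore. Ccnd1, with the smallest p of the members in the explants without a block, was closest to Cfl1 (r = 0.978), Trmt61a (r = 0.958) and Eif3b (r = 0.948). In the 6 PSC libraries Cdk6, with the smallest p there, was closest to Asap1 (r = 0.992), Ttc9 (r = 0.988) and Hnrnpd (r = 0.959) of 11665 genes.

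The loci of the other members on GRCm39 were chr7:144483668-144493662 (Ccnd1), chr6:127102125-127129156 (Ccnd2), chr17:47815767-47910624 (Ccnd3), chr10:126895180-126903789 (Cdk4), chr5:3391485-3581008 (Cdk6), chr17:29309936-29319701 (Cdkn1a), chr6:134897364-134902476 (Cdkn1b) and chr7:143012069-143014806 (Cdkn1c). No member shared exon bases with another gene on its own strand. Opposite-strand genes covered 59.9% of the exon bases of Ccnd1 and 28.6% or less in the other members, and the reads were counted by strand.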

How the data were processed

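Total RNA was made into stranded mRNA libraries and sequenced by the authors, who aligned the reads to GRCm39 with STAR 2.7.10b, counted them per gene and strand (GENCODE M33 basic), and scaled PSC and explant libraries apart by size factors from DESeq2 1.38.3 in R 4.2.2. The deposited values are therefore a signal, normalized counts, unfiltered. Tool versions are from the submitters' processing notes. Dividing a library by its smallest step gave whole reads within 0.1 read for 100% of values in 16 of 16 libraries, and the whole-read check accepted 14. The steps of the other 2, replicate 1 of PSC+SCG and replicate 4 of SCG+PSC, are too near 1 for that check.

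Groups and replicate numbers came from the labels. limma 3.58.1 in R 4.3.3 (empirical Bayes with trend, all groups of a side in 1 fit) was run on log2(normalized count + 1), with Benjamini-Hochberg adjustment over all genes with a summed count of at least 10, 21273 on the PSC side and 23779 on the explant side. Intervals are 95%. The paper's model had the experimental batch as a term, but no source used here ties libraries to batches. The replicate number served as a block in an alternative. Deviations from the group means, over genes with a mean of at least 50, correlated between same-numbered libraries in each pair. Their r ran from 0.31 to 0.762 in 9 explant pairs and from 0.567 to 0.823 in 3 PSC pairs. Between different numbers r averaged -0.218 (-0.571 to 0.424) in explants and -0.315 (-0.696 to 0.335) in PSCs. Centring on group means pushes r between different numbers below 0 where same-numbered libraries correlate, so this contrast is partly built in. SCG+PSC replicate 4 reached 0.424 with SCG+MEF replicate 3 and 0.353 with SCG replicate 3, above the lowest same-numbered r. The numbers were taken to pair the libraries, from the labels' numbers and this correlation, not from a statement of a shared culture.

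Alternatives were pseudocounts of 0.5 and 8, a filter of 10 in 3 libraries, no filter, quantile and upper-quartile scaling, protein-coding genes only, adjusted p alone, leaving out each library, and for explants the compared groups only, edgeR 4.0.16 and DESeq2 1.42.0 on recovered reads without SCG+PSC replicate 4. Leaving out each library under the block was added after the data had been seen. The limma test without a block was checked on simulated data that held no effect of the replicate number. The fits with the block, edgeR and DESeq2 were not checked in this way.

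The members and lists were chosen with earlier results of these data known. The genes named are the 10 members, 2 to 4 genes per fixed list (called ones first, then those with the highest mean), genes of marker lists, and 3 genes of like pattern per member called, or else with the smallest p. Names such as Acta2, Mdm2, Ccng1 and Pecam1 within their lists were picked after their values were seen. Annotation was GENCODE M39 on GRCm39, promoters were from RefSeq on GRCm38.p6, and no coordinates were converted between builds.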

Additional observations from a re-analysis of the deposited data

Results flagged for a closer look

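Cdkn2c in SCG+PSC replicate 2 stood apart from the other 3 libraries of its group, at 727 normalized counts beside 490 to 504. Its gap to the nearest library was 0.943 of the group's whole range, above Dixon's critical value for 4 samples, which chance exceeds in about 1 of 20 groups. That rate holds for a single group and was not adjusted for the 10 members, so chance may give such a gap. Replicate 2 was also the highest library of Cdkn2c in SCG and in SCG+MEF. Without SCG+PSC replicate 2 the log2 fold change of Cdkn2c against SCG was 0.68, and with same-numbered libraries as a block it was 1.06.

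Ccnd1 was called in neither limma fit of SCG+PSC against SCG+MEF, but passed on adjusted p alone under the replicate block. There SCG+PSC exceeded SCG+MEF by 0.474 on the log2 scale (SE 0.10, limma adjusted p 0.0441), with 3 of 3 same-numbered pairs in that direction. The share of all genes that pass on adjusted p alone under the block was not counted. The difference stayed under the fold threshold of 0.5 and did not pass without a block (limma adjusted p near 1, and 5.68e-04 to 1 over the alternatives). Under the block, leaving out SCG replicate 1, any SCG+MEF library or SCG+PSC replicate 1 or 2 took the adjusted p above 0.05, to between 0.0636 and 0.270.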

How the results depend on the processing

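The replicate block, which pairs same-numbered libraries, changed 1 call among the members, Cdkn2c in SCG+PSC against SCG, and so moved the count there from 0 to 1, as did edgeR (1) and DESeq2 (1) with the block. DESeq2 with the block also gave 1 member in SCG+PSC against SCG+MEF, again Cdkn2c. The block changed no other call of a member. Over all genes it gave 98 in PSC+SCG against PSC, 312 in SCG+PSC against SCG, 38 in SCG+MEF against SCG and 187 in SCG+PSC against SCG+MEF, where there were 0, 8, 3 and 0 without it (408, 1202, 802 and 971 at an unadjusted limma p under 0.05). With the block edgeR gave 327, 36 and 212 and DESeq2 421, 110 and 371 in the 3 explant comparisons.

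Leaving out a library, with or without the block, gave 0 to 1 members in SCG+PSC against SCG and 0 to 1 in SCG+PSC against SCG+MEF, where Ccnd1 was called without SCG+PSC replicate 3 and Cdkn2c without SCG+PSC replicate 2, both under the block. Over all genes it gave 0 to 470 in PSC+SCG against PSC, 3 to 372 in SCG+PSC against SCG, 2 to 78 in SCG+MEF against SCG and 0 to 299 in SCG+PSC against SCG+MEF. The highest PSC count, 470, came without either replicate 3 library under the block, and the block count of SCG+PSC against SCG+MEF was 0 without SCG+MEF replicate 1 or 3. Fits on the compared groups only gave 3 genes in SCG+PSC against SCG and 1 in SCG+MEF against SCG, edgeR without the block gave 3 in the former, and quantile normalization gave 5 in the latter. The causes of these shifts were not tested.

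Of 1200 values of the members under alternatives, 86 had the opposite sign of the reported value, 80 of them with a library left out. None was called, and the reported log2 fold changes concerned were at most 0.29 in size. The edgeR and DESeq2 fits of the PSC libraries were not run, since the reads of PSC+SCG replicate 1 were not accepted as recovered. Cdkn2a in explants, at 27.4 to 132 normalized counts, carried the most counting error of the members.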
